A study of Homo sapiens with 66 samples.

Results

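Occupancy by subunits of hypoxia-inducible factor (HIF) was examined at 7 genes that encode transcription factors of the kidney lineage, namely PAX8, PAX2, LHX1, EMX2, WT1, GATA3 and TFCP2L1. A peak was given to one of them when its centre lay in the body of the gene or within 50 kb of a start site of its coding transcripts and nearer to it than to any other protein-coding gene. These 7 genes are among 19821 protein-coding genes in the annotation, and they received 87 of the 131425 peaks called in the series. The rule used the names and positions of the genes and no measured value, but the 7 genes were chosen with earlier results of these data known.

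Antibodies against HIF-1β, HIF-1α and HIF-2α were used for ChIP-seq in 3 cell lines of human origin, and 50 ChIP libraries in 25 groups of 2 each had a peak list of their own. The 16 input samples were not analysed here. HKC-8 cells derive from the epithelium of the renal tubule. In a severity and duration experiment they were kept for 6 h at 3% oxygen, or at 0.5% oxygen for 6 h, 16 h or 48 h, with all 3 antibodies (24 libraries). In a knockout experiment, HKC-8 cells that were wild-type (WT), HIF-1α knockout (KO) or HIF-2α KO were all kept in 0.5% oxygen for 16 h (14 libraries), and each KO line was a single CRISPR-Cas9 clone. RCC4 cells come from a renal carcinoma without functional VHL, the protein that marks HIF-α for destruction, and they were studied in normoxia (6 libraries). HepG2 is a liver cancer line and was kept in 0.5% oxygen for 16 h (6 libraries). In RCC4 the HIF-1β libraries are numbered replicates 2 and 3.

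HIF is a dimer of an oxygen-regulated α subunit, HIF-1α or HIF-2α, with the constitutive partner HIF-1β, and it binds a short core sequence in open chromatin. PAX2 and PAX8 are paired-box factors that act together from the earliest stages of nephric duct formation, and LHX1 is a LIM homeobox factor that acts with them in the duct and in the early nephron. GATA3 is a zinc-finger factor of the nephric duct and collecting system, EMX2 a homeobox factor of the ureteric bud, WT1 a zinc-finger factor of the nephron progenitors and podocytes, and TFCP2L1 a factor of the collecting duct and distal tubule. PAX8 and PAX2 are also widely used as markers of renal epithelium and renal carcinoma.

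The lists differ in length. In the knockout experiment they held 915 to 8279 peaks, in RCC4 911 to 5680, in HepG2 3470 to 6851 and at the different oxygen levels and times 237 to 1793, and read depth is not given in them. A gene without a peak in a list was therefore not called in that library, which does not show that HIF was absent from it. The strength of a peak is given as its score rank, the percentile of its score within its own list, where 100% is the highest score. In HepG2 the share of peaks within 1 kb of a start site was 6.6% and 28.1% in the libraries labelled HIF-1α replicates 1 and 2, and 30.1% and 7.9% in those labelled HIF-2α replicates 1 and 2. Over all HKC-8 and RCC4 libraries HIF-1α had a share of 5.8% to 42.1% and HIF-2α one of 2.1% to 10.6%, and in RCC4 and the WT cells of the knockout experiment it was 15.7% to 38.3% and 4.9% to 9.3%. The HepG2 library labelled HIF-2α replicate 1 thus lay above every other HIF-2α library, whereas the one labelled HIF-1α replicate 1 lay below those of RCC4 and WT but within the range of all HIF-1α libraries. Whether their isoforms are as labelled was not tested. The test of kidney lines against HepG2 is also given with both isoforms pooled, and the isoform test without HepG2 for PAX8 and LHX1.

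Peaks were concentrated at 3 of the 7 genes. PAX8 had 44 peaks in 25 of 50 libraries, LHX1 had 21 peaks in 21 libraries and PAX2 had 20 peaks in 17 libraries. GATA3 had 2 peaks, each in 1 HepG2 library. EMX2, WT1 and TFCP2L1 had none in any of the 50 libraries, and the nearest peaks lay 100.1 kb, 126.6 kb and 98.2 kb from their coding start sites, beyond the window.

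At each of the first 3 genes, 1 site stood out by the number of libraries in which it was called. Peaks of any library that overlapped by at least 1 bp were merged into a site, and coordinates are on GRCh37. The PAX8 site (PAX8, ENSG00000125618.18_12, minus strand) lay at chr2:113997193-114000628 and was called in 25 libraries. Its centre was 37.7 kb downstream of the gene start, inside the gene and 0.52 kb from an internal start site of a coding transcript. The annotation places exons of PAX8 transcripts, of the antisense gene PAX8-AS1 and of the non-coding gene RP11-65I12.1 at this centre.

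The LHX1 site (LHX1, ENSG00000273706.5_7, plus strand) lay at chr17:35258016-35259615, 35.1 kb upstream of the gene start, and was called in 20 libraries. Its centre falls in an intron of LHX1-DT, a divergent non-coding transcript. The PAX2 site (PAX2, ENSG00000075891.24_14, plus strand) lay at chr10:102489377-102492333, was intergenic, 4.2 kb upstream of the gene start, and was called in 15 libraries. Among 50169 merged sites of the whole series, 0.803% were called in at least 25 libraries, 1.34% in at least 20 and 2.43% in at least 15. PAX8 had a pair of further upstream sites. One lay 4.7 kb before the gene start at chr2:114039978-114042407 (10 libraries) and one 45.0 kb before it at chr2:114080486-114082203 (6 libraries).

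All peaks of the main PAX8, LHX1 and PAX2 sites shared 408 bp, 275 bp and 774 bp. These stretches, where the calls of different lines and antibodies coincide, are shown whole for LHX1 and by their central 300 bases for PAX8 and PAX2. The sequences are the plus strand of GRCh37 from chr2:113998594-113998893, chr17:35258870-35259144 and chr10:102490787-102491086. Capitals mark the hypoxia response element (HRE) core, ACGTG or GCGTG, on either strand. The AP-1 motif, TGACTCA or TGAGTCA, was searched as well and is in none of the 3.
PAX8: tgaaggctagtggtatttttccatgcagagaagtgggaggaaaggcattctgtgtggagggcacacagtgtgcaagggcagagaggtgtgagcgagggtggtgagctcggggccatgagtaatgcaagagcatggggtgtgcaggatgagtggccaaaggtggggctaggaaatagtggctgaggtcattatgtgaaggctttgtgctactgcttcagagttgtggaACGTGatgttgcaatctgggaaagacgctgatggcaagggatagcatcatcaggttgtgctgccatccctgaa
LHX1: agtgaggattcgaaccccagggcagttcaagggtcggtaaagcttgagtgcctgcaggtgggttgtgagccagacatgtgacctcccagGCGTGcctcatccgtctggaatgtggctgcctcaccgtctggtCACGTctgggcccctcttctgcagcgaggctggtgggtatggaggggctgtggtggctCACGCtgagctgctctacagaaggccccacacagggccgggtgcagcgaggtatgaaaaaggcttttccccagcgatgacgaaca
PAX2: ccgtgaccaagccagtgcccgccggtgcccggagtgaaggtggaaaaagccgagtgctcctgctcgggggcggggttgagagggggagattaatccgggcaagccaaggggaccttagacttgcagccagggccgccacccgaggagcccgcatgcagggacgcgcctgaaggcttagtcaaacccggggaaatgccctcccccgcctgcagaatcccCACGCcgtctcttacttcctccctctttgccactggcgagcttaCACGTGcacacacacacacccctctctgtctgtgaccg

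The printed PAX8 stretch holds 1 HRE core, the LHX1 stretch 3, and the PAX2 stretch 3 HRE matches, of which 2 are the same palindrome read on both strands. The whole shared stretch held 1 HRE core and 1 AP-1 motif at PAX8 and 5 HRE matches at PAX2. In the 201-bp window around the site centre there was 1 HRE core at PAX8, 3 at LHX1 and 3 at PAX2, and no AP-1 motif at any of the 3. Such a window held an HRE core at 34.0% of all sites and at 69.6% of the 2652 sites called in at least 10 libraries, and an AP-1 motif at 8.0% and 18.1%. The 201-bp window of the PAX8 site 4.7 kb upstream held neither motif, and that of the site 45.0 kb upstream held 1 HRE core. A match describes the letters only.

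**Figure D1:**
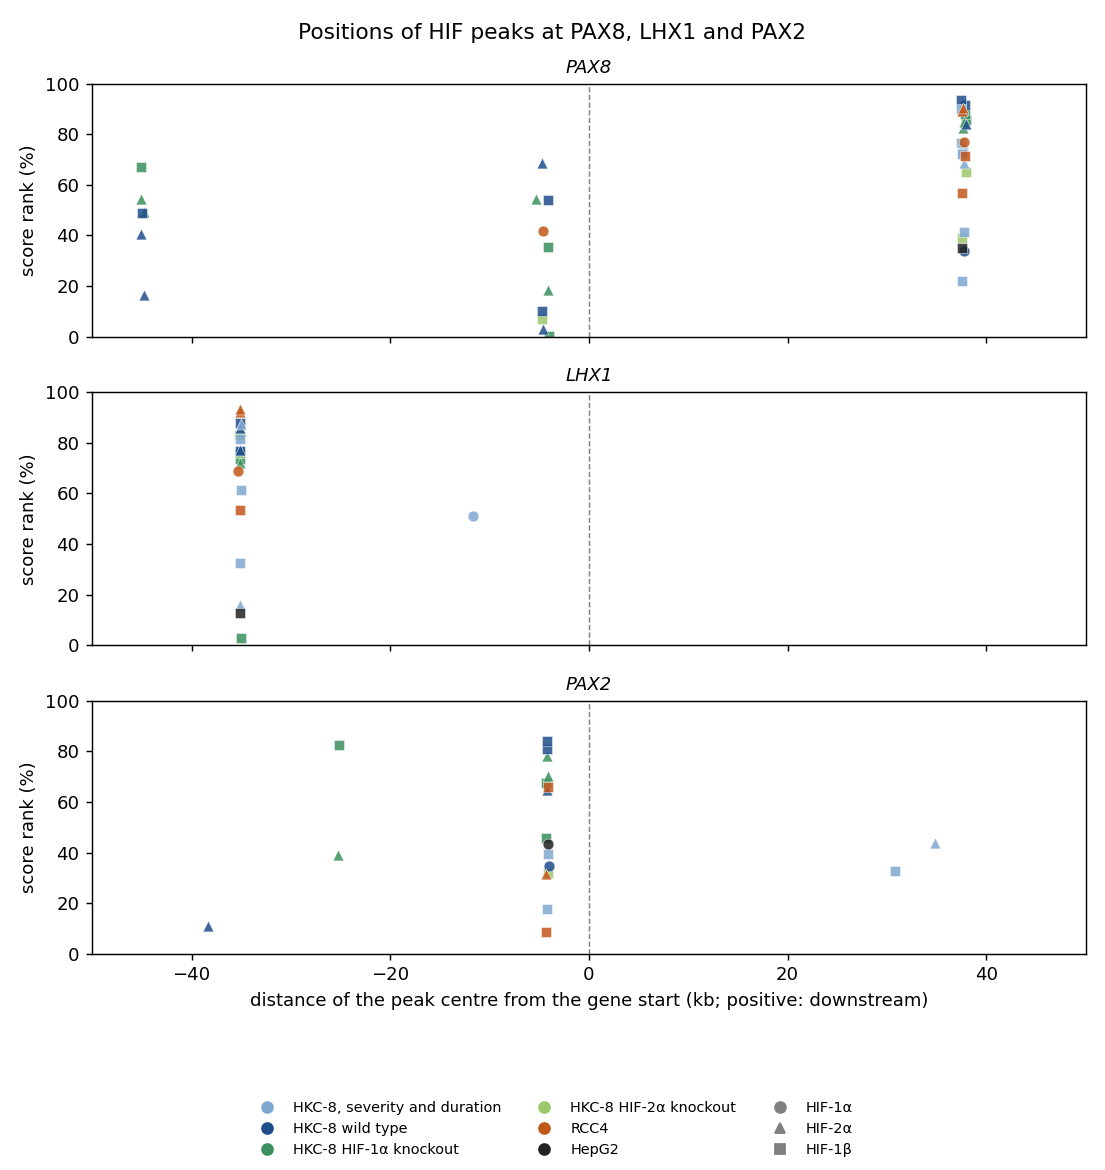
Distance of each peak centre from the gene start (x axis, kb, positive values downstream in the direction of transcription) against its score rank (y axis, %), 1 point per site and library, for PAX8, LHX1 and PAX2, with colours for the cell line or experiment and symbols for the antibody. The points gather at 37.7 kb in PAX8, 35.1 kb before LHX1 and 4.2 kb before PAX2, and the PAX8 points at 45.0 kb upstream are from HKC-8 alone.

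The first question was whether the genes were called more often in the kidney lines than in the liver line. PAX8 had a peak in 10 of 12 libraries of WT HKC-8 and RCC4 and in 1 of 6 HepG2 libraries. LHX1 was called in 8 of 12 against 1 of 6, PAX2 in 7 of 12 against 1 of 6, and GATA3 in 0 of 12 against 2 of 6. The 3 genes with recurrent peaks were thus called in a larger share of kidney libraries, and GATA3 in a larger share of HepG2 libraries.

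For HIF-1β, PAX8 had score ranks of 91.7% and 93.4% in WT HKC-8 replicates 1 and 2, 71.4% and 56.9% in RCC4 replicates 2 and 3, and 34.9% in HepG2 replicate 1, with no peak in HepG2 replicate 2. For HIF-2α its ranks were 83.9% and 89.5% in WT HKC-8 and 89.1% and 90.3% in RCC4, and it was not called in either HepG2 library. For HIF-1α it was called at 34.0% in WT HKC-8 replicate 1 and 77.0% in RCC4 replicate 1, and in neither second replicate nor in HepG2. All 8 kidney libraries of HIF-1β and HIF-2α thus ranked PAX8 above the only HepG2 library that called it, whereas HIF-1α gave a peak in 1 replicate per kidney line.

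LHX1 followed PAX8 for HIF-2α. Its HIF-2α ranks were 77.1% and 85.9% in WT HKC-8 and 92.0% and 93.3% in RCC4, again with no call in HepG2. In RCC4 this placed LHX1 as peak 348 of 4317 and peak 202 of 2990, ahead of PAX8 at 473 and 292 in the same lists. For HIF-1β it ranked 76.6% and 88.0% in WT HKC-8 and 53.6% in RCC4 replicate 3, was not called in RCC4 replicate 2, and ranked 12.7% in HepG2 replicate 1 with no peak in replicate 2. For HIF-1α it was called in 1 library, RCC4 replicate 1, at 68.9%.

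PAX2 was the least even of the 3. For HIF-1β it was called in all 4 kidney libraries, at 80.9% and 84.0% in WT HKC-8 and at 65.8% and 8.5% in RCC4, and in neither HepG2 library. For HIF-2α it was called in 1 replicate of each kidney line, at 64.7% in WT HKC-8 replicate 2 and 31.4% in RCC4 replicate 1. For HIF-1α it ranked 34.8% in WT HKC-8 replicate 1 and 43.4% in the HepG2 library labelled HIF-1α replicate 2, so the groups overlapped for this antibody.

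**Figure D2:**
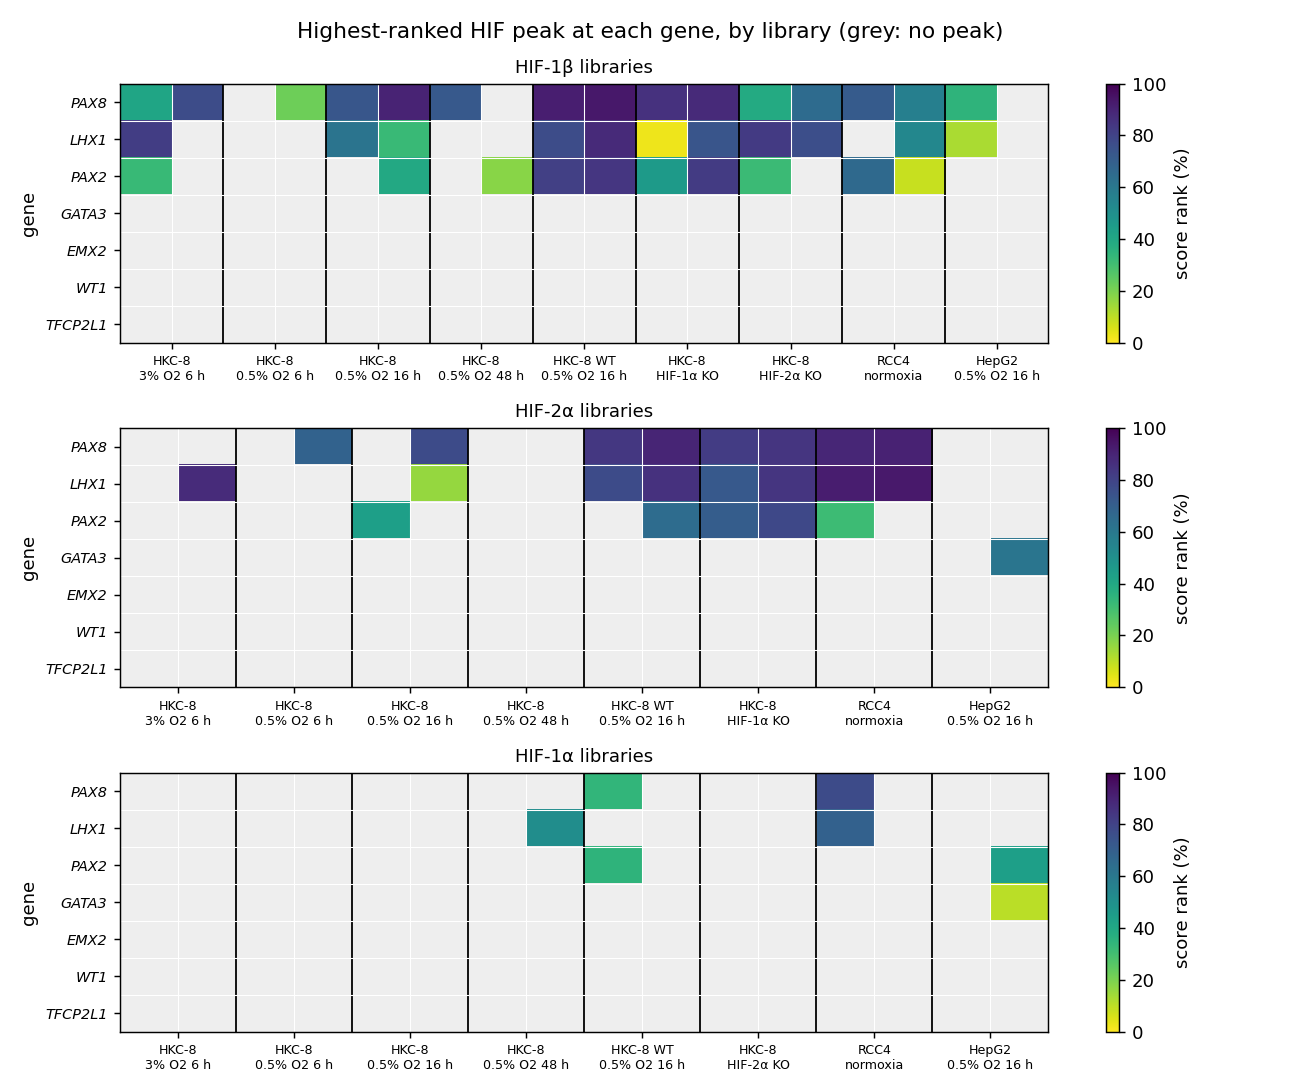
Score rank of the highest-ranked peak at each of the 7 genes (rows) in each library (columns, replicates side by side, grouped by cell line and condition), with 1 panel per antibody and grey for no peak. PAX8 and LHX1 are dark in the HIF-1β and HIF-2α libraries of WT HKC-8 and in RCC4 HIF-2α, HepG2 is mostly grey, and EMX2, WT1 and TFCP2L1 are grey in all 50 libraries.

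The difference was tested for every gene with a peak in any of these 18 libraries by an exact two-sided permutation test of the number of libraries called, with labels permuted within antibody and p-values adjusted by the Benjamini-Hochberg method over all 9968 genes tested. None of the 4 members tested passed an adjusted p of 0.05. Across all genes 0.401% were called higher in the kidney lines (40 genes) and 2.64% higher in HepG2 (263 genes), and the smallest p that the 3375 arrangements allow is 0.000296. With every list shortened to its 911 highest scores the numbers were 68 and 128.

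For PAX8 the difference was 66.67 percentage points (exact permutation p = 0.008889, adjusted p = 0.1411). For LHX1 it was 50 percentage points (exact p = 0.1052, adjusted p = 0.4696) and for PAX2 41.67 percentage points (exact p = 0.157, adjusted p = 0.5445). GATA3 went the other way by 33.33 percentage points in favour of HepG2 (exact p = 0.1111, adjusted p = 0.4696), and by 20 percentage points without either the HepG2 library labelled HIF-1α replicate 2 or the one labelled HIF-2α replicate 2. The median difference over the 4 members with a peak in these libraries was 45.8 percentage points, beside −8.3 over all genes tested, which also had a peak in them. Of these 9968 genes, 3974 were called in a larger share of kidney libraries, 5551 in a larger share of HepG2 libraries and 443 in equal shares. EMX2, WT1 and TFCP2L1 had no peak to test. The RCC4 HIF-1β lists were the shortest of the 18, with 911 and 1305 peaks, and both called PAX8 and PAX2, whereas the HepG2 HIF-1β lists held 6171 and 3986 peaks and called PAX8 once and PAX2 in neither. LHX1 showed no such contrast in its calls, with a HIF-1β call in 1 of 2 RCC4 and 1 of 2 HepG2 libraries. Its place in the lists did differ, at peak 606 of 1305 in RCC4 replicate 3 and peak 5386 of 6171 in HepG2 replicate 1.

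The result for PAX8 was closest to the threshold and crossed it in 1 of 30 other settings, with a different measure. Among the 30 are the single kidney lines, the replicate block and the loss of some HepG2 libraries, where no gene passed in either direction. When the score rank was tested in place of the call, with a rank of 0 for no peak, PAX8 passed (exact permutation p = 0.00178, adjusted p = 0.036, difference 58.9 points of rank), and 86 genes were then higher in the kidney lines and 431 in HepG2. LHX1 did not pass on this measure (exact permutation, adjusted p = 0.0908, difference 50.8 points). In lists shortened to 911 peaks, PAX8 stayed in 8 of 12 kidney lists, which were all 4 of HIF-2α and all 4 of HIF-1β, and in 0 of 6 HepG2 lists (exact permutation, adjusted p = 0.0604). LHX1 then stayed in 3 of 12 and PAX2 in 1 of 12 kidney lists, and both in 0 of 6 of HepG2. With HIF-1α and HIF-2α libraries permuted together, which makes the result independent of the isoform labels in HepG2, the adjusted p for PAX8 was 0.151. Other settings weakened the PAX8 result. With HKC-8 of the severity and duration experiment, PAX8 had an exact permutation p of 0.0889 (adjusted p = 0.426). With all annotated genes it had an exact permutation p of 0.105 (adjusted p = 0.531). Its highest adjusted p in the 30 settings was 0.774, with RCC4 alone (exact permutation).

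**Figure D3:**
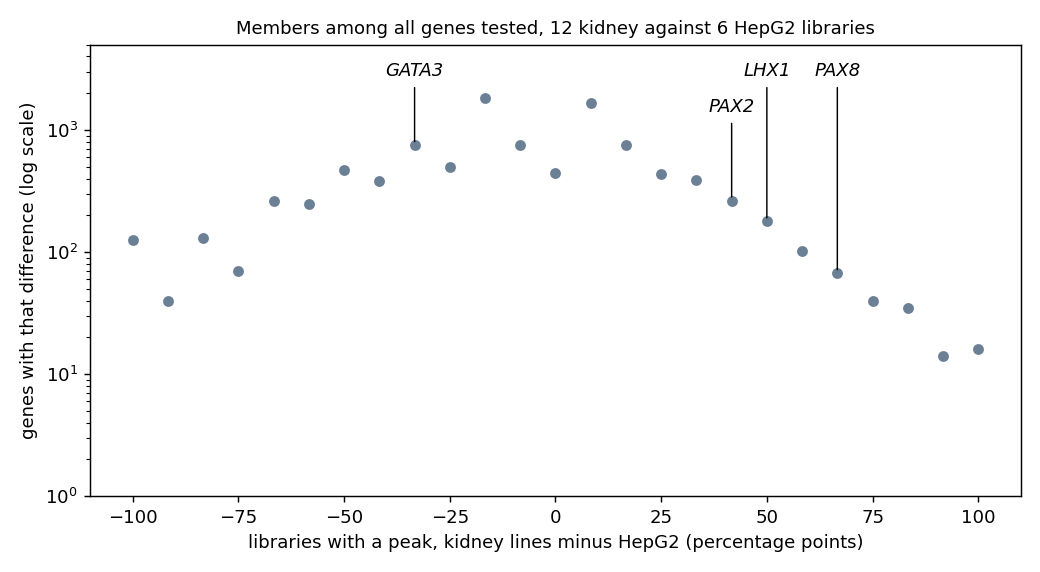
Number of genes (y axis, log scale) at each difference in the share of libraries with a peak, kidney lines minus HepG2 (x axis, percentage points), for the 9968 genes tested, with 12 kidney and 6 HepG2 libraries. PAX8 at 66.67, LHX1 at 50 and PAX2 at 41.67 lie in the right-hand tail and GATA3 at −33.33 on the left, while the median of all genes is −8.3.

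For a single antibody, 4 kidney libraries against 2 of HepG2 cannot give an exact p below 0.0667, so the antibodies were not tested one by one. The kidney lines differ from HepG2 in more than tissue. Cell line and experiment cannot be told apart, nor can RCC4 and its normal oxygen. Libraries of one line made with different antibodies may come from the same chromatin, and although the study treats its replicates as separate ChIP-seq experiments, it is not stated whether their cultures were separate, so p-values measure the spread between these libraries, which may be technical.

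The same comparison per site located the calls. None of the 8 member sites tested passed, beside 0.121% of the 33798 sites that were called higher in the kidney lines (41 sites) and 0.879% higher in HepG2 (297 sites). The main PAX8 site carried the whole of the gene's difference, with 10 of 12 libraries against 1 of 6 (exact permutation, adjusted p = 0.256). The site 4.7 kb upstream of PAX8 was called in 5 of 12 against 0 of 6 (exact permutation p = 0.135, adjusted p = 0.594), and the site 45.0 kb upstream in 3 of 12 against 0 of 6 (exact permutation, adjusted p = 0.818). The main LHX1 and PAX2 sites each had an adjusted p of 0.594.

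The same test was read for a pair of wider lists of transcription factor genes. Of 37 other genes of kidney development and the nephron, 28 had a peak in the series and 20 in the 18 libraries, and 1 passed the test, in the direction of HepG2. This was TCF21, a factor of the kidney stroma and podocytes, called in 0 of 12 kidney and 5 of 6 HepG2 libraries (exact permutation, adjusted p = 0.04874). Of the 20 tested, 9 were called in a larger share of kidney libraries, 10 in a larger share of HepG2 libraries and 1 in equal shares, with a median difference of −4.2 percentage points. Over all 9968 genes tested, these numbers were 3974, 5551 and 443. Of 19 liver transcription factor genes 12 were tested and 3 passed, all higher in HepG2. These were HNF4A, a nuclear receptor central to hepatocyte identity, and the hepatic factors PROX1 and TBX3, each called in 0 of 12 kidney and 6 of 6 HepG2 libraries (exact permutation, adjusted p = 0.02095). Of the 12 tested, 9 were called in a larger share of HepG2 libraries and 3 in a larger share of kidney libraries, with a median difference of −16.7 percentage points beside −8.3 over all genes. The 3 were ONECUT2, called in 6 of 12 kidney and 0 of 6 HepG2 libraries (exact permutation, adjusted p = 0.4696), NR5A2, in 7 of 12 and 1 of 6 (exact permutation, adjusted p = 0.4938), and GATA4, in 3 of 12 and 0 of 6 (exact permutation, adjusted p = 0.8731). Over all genes 2.64% passed in the direction of HepG2, beside 3 of these 12.

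The second question was which isoform occupied the genes. Over all 50 libraries PAX8 was called in 15 of 18 HIF-1β, 8 of 16 HIF-2α and 2 of 16 HIF-1α libraries. LHX1 was called in 11 of 18, 8 of 16 and 2 of 16, and PAX2 in 10 of 18, 5 of 16 and 2 of 16. HIF-1β therefore called each of the 3 genes in the largest share of its libraries and HIF-1α in the smallest. The same shares over all genes were not computed, so this order is not read as particular to the 3 genes. List length went the same way in WT HKC-8, with 1913 and 1535 peaks for HIF-1α, 4537 and 6749 for HIF-2α and 6199 and 8279 for HIF-1β. It did not in RCC4, with 5680 and 2120 peaks for HIF-1α, 4317 and 2990 for HIF-2α and 911 and 1305 for HIF-1β. In HepG2 the list lengths of the antibodies overlapped, and in the severity and duration experiment their order changed with the condition. The sets are also unlike, since HIF-1α was used in the HIF-2α KO line, HIF-2α in the HIF-1α KO line and HIF-1β in both. What list length adds to this order was not tested.

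HIF-1α and HIF-2α were compared in the 7 conditions with both antibodies and neither gene disrupted, 14 libraries each, by an exact two-sided permutation test within condition. PAX8 was called in 6 of 14 HIF-2α and 2 of 14 HIF-1α libraries (exact p = 0.125). LHX1 was called in 6 of 14 and 2 of 14 (exact p = 0.1875) and PAX2 in 3 of 14 and 2 of 14 (exact p = 1). GATA3 was called in 1 library of each. No gene of the 10753 tested passed in either direction (0% higher for HIF-2α and 0% for HIF-1α), and every member had an adjusted p of 1, while 218 genes had an unadjusted p below 0.05, 138 of them higher for HIF-2α and 80 for HIF-1α. The difference, HIF-2α minus HIF-1α, was 28.57 percentage points for PAX8 and for LHX1 and 7.143 for PAX2. Over all genes tested its mean was 0.2 and its median 0.0 percentage points. Without HepG2 the difference was 33.3 percentage points for PAX8 (exact p = 0.125) and for LHX1 (exact p = 0.187). In lists shortened to 237 peaks, PAX8 and PAX2 had no HIF-α peak left to test. LHX1 then had a difference of 14.3 percentage points (exact p = 0.5).

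At PAX8 the HIF-1α rank in WT HKC-8, known from replicate 1 alone, was lower than those of the other antibodies. In WT HKC-8 replicate 1 PAX8 was peak 1263 of 1913 for HIF-1α, peak 731 of 4537 for HIF-2α and peak 515 of 6199 for HIF-1β. In RCC4 replicate 1, the longest HIF-1α list of the kidney lines with 5680 peaks, PAX8 was peak 1310 and LHX1 peak 1766. This PAX8 rank of 77.0% lay above the RCC4 HIF-1β ranks (71.4% and 56.9%) and below those of HIF-2α (89.1% and 90.3%). The second RCC4 HIF-1α list had 2120 peaks and held none of the 7 genes.

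The KO lines were used to ask how the calls of one subunit stood when an α isoform was missing. With 2 libraries against 2 no exact p below 0.333 is possible, so these values are a description. HIF-2α at PAX8 ranked 83.9% and 89.5% in WT cells and 82.4% and 84.7% in HIF-1α KO cells. At LHX1 the values were 77.1% and 85.9% in WT and 71.9% and 84.7% in HIF-1α KO cells. The ranges of both lines overlapped at both genes. At PAX2, HIF-2α was called in 1 of 2 WT libraries (64.7%) and in both HIF-1α KO libraries (70.4% and 78.3%).

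HIF-1β at PAX8 ranked 91.7% and 93.4% in WT cells. Its ranks were 85.8% and 88.0% without HIF-1α, and 38.9% and 65.1% without HIF-2α. The HIF-2α KO values lay below all 4 others, in lists of 2550 and 2085 peaks against 3387 to 8279 in the others. At LHX1 the HIF-1β ranks were 76.6% and 88.0% in WT cells, 2.7% and 73.5% without HIF-1α and 83.1% and 75.8% without HIF-2α, so the HIF-2α KO libraries lay within the range of WT or just below it. At PAX2 they were 80.9% and 84.0% in WT, 45.7% and 82.7% without HIF-1α, and 32.0% in HIF-2α KO replicate 1 with no peak in replicate 2. The value of 82.7% was at a site 25.2 kb upstream of PAX2, and the main site ranked 67.4% in that library. PAX8 and PAX2 thus ranked lower without HIF-2α than with it, and the LHX1 ranks of the lines overlapped or nearly met.

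HIF-1α was called at none of the 7 genes in the HIF-2α KO line, in lists of 1271 and 915 peaks, while in WT cells replicate 1 called PAX8 and PAX2 and replicate 2, with 1535 peaks, called none of the 7. The site 4.7 kb upstream of PAX8 was called in all 4 HIF-1β and HIF-2α libraries of WT cells, all 4 of HIF-1α KO cells, 1 of 4 libraries of HIF-2α KO cells and 1 RCC4 library. Its ranks ran from 0.3% to 68.8% with a median of 26.8%, well under the main site's median of 77.0%. The site 45.0 kb upstream was called in 3 WT and 3 HIF-1α KO libraries and in no HIF-2α KO, RCC4 or HepG2 library.

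**Figure D4:**
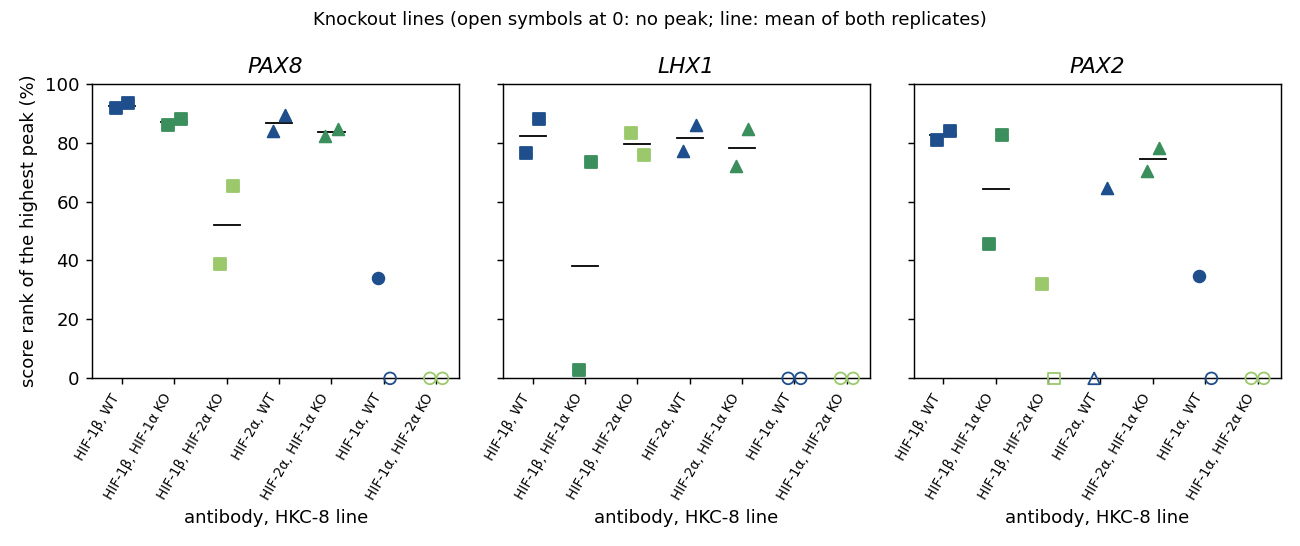
Score rank of the highest-ranked peak (y axis, %) at PAX8, LHX1 and PAX2 in the knockout experiment, by antibody and HKC-8 line (x axis), with 1 symbol per replicate, a line at the mean where both replicates were called, and open symbols at 0 for no peak. HIF-1β at PAX8 is at 91.7% and 93.4% in WT and at 38.9% and 65.1% in HIF-2α KO cells, while at LHX1 it is at 83.1% and 75.8% in the latter.

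In the severity and duration experiment, whose lists were shorter, PAX8 was called in 8 of 24 libraries, LHX1 in 6 and PAX2 in 4. For HIF-1β PAX8 ranked 41.2% and 76.6% after 6 h in 3% oxygen, 22.1% in replicate 2 after 6 h in 0.5% oxygen, 73.2% and 90.0% after 16 h, and 72.2% in replicate 1 after 48 h. For HIF-2α it was called in 1 replicate at 6 h (68.7%) and 1 at 16 h in 0.5% oxygen (77.0%). For HIF-1α it was called in none of the 8 libraries. Called and uncalled replicates occurred together at most time points, and no order with time or oxygen could be read from them.

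LHX1 was called for HIF-1β in replicate 1 in 3% oxygen (81.7%) and in both replicates after 16 h in 0.5% oxygen (61.5% and 32.4%). For HIF-2α it was called in replicate 2 in 3% oxygen at 87.5%, peak 123 of 977, and in replicate 2 after 16 h at 15.7%. Its 1 HIF-1α peak, in replicate 2 after 48 h, lay 11.7 kb before the gene start and not at the main site. PAX2 was called at its main site by HIF-1β in replicate 2 after 16 h (39.6%) and after 48 h (17.9%). The other PAX2 calls of this experiment lay inside the gene, 30.8 kb and 34.9 kb from its start, in 1 library each.

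GATA3 had 1 peak in an intron, 5.2 kb from its start and overlapping an exon of GATA3-AS1, in the HepG2 library labelled HIF-2α replicate 2 (61.0%). The other lay 54.8 kb downstream of the gene start, 41.8 kb from the nearest GATA3 start site, in the library labelled HIF-1α replicate 2 (10.3%). Neither was present in both replicates of a group.

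The assignment to a gene rests on distance. When all annotated genes were allowed to receive peaks, the 21 peaks at LHX1 went to LHX1-DT, 26 of the 44 PAX8 peaks stayed with PAX8 while 12 went to RP11-65I12.1 and 6 to LINC02966, and all 20 PAX2 peaks stayed with PAX2. The 50 kb limit also decides what is counted. The farthest peaks inside it lay 45.1 kb from a PAX8 start site, and the nearest peak outside it that went to no gene lay 51.5 kb from PAX2, where 21 peaks in 18 libraries were within 200 kb and not counted. At LHX1 there were 17 such peaks in 9 libraries, the nearest 86.9 kb away. PAX8 had 27 peaks in 19 libraries within 200 kb that were not counted. The nearest of these lay 25.6 kb from a PAX8 start site, inside the limit, and went to PSD4.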

How the data were processed

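Peak lists were analysed from 50 ChIP libraries, and the 16 input samples had no list and were not used. Per the submitters' processing notes and the study's methods, reads were trimmed with Trim Galore 0.3.3, aligned to GRCh37 with BWA 0.7.5a-r405, filtered with SAMtools 0.1.19 and bedtools 2.17.0, marked for duplicates with Picard 1.106, and peaks were called per library with MACS against input. For its own sites the study also used the T-PIC caller, a filter against random background regions and overlap between replicates. The calls counted here are those of single libraries, without that overlap. The values deposited by the authors are the caller's score for each peak, with 50.0 as the lowest in any list. Scores were used only for ranking within a list, since the lists hold no depth.

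Each peak was given to 1 protein-coding gene of GENCODE 44 mapped to GRCh37: the gene whose body held its centre, otherwise the one with the nearest start site, at most 50 kb away. "Nearer than any other gene" was read as other protein-coding genes. No peak ended beyond a chromosome end. Groups came from the sample titles. Libraries called were compared by exact permutation tests within antibody or condition, adjusted by Benjamini-Hochberg over all genes or sites, with Python 3.11.15, numpy 2.4.6, pandas 2.3.3 and scipy 1.17.1. The tests were tried on simulated data. No interval or detection limit can be given without depth.

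The 7 genes, the wider lists and the tests were chosen with earlier results of these data known. All 7 genes are named, per gene the sites called in both replicates of a group (at most 3, by libraries), and from the wider lists up to 5 genes past the threshold. The other sites given for PAX2, LHX1 and GATA3, and ONECUT2, NR5A2 and GATA4, fall outside that rule and were named after their values were seen. Alternatives were equal list lengths, a score of at least 100, 10 kb, all annotated genes, score rank, other HKC-8 libraries, single lines, genes in at least 3 libraries, 200 bp windows, replicate number as a block and leaving out each library. After seeing the data, a pooled stratum of both HIF-α isoforms and leaving out RCC4 HIF-1β were added.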

Additional observations from a re-analysis of the deposited data

How the results depend on the processing

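Among the alternatives that gave a member a value, PAX8 with the score rank was the only pass, and no member with a difference turned its direction. LHX1 had no value within 10 kb or with all annotated genes, and GATA3 had none in lists of equal length, at a score of at least 100 or among genes in at least 3 libraries. In the isoform comparison PAX8 and PAX2 also had none in lists of equal length. For GATA3 the difference between kidney lines and HepG2 ranged from −40.0 to −20.0 percentage points when 1 library was left out (−16.7 within 10 kb and with all annotated genes), with adjusted p of 0.329 to 0.689, and the isoform difference of 0 at GATA3 ranged from −7.1 to 7.1 percentage points when 1 library was left out. The counts over all genes were less stable. Of genes higher in the kidney lines (40) and in HepG2 (263), lists of equal length gave 68 and 128, score ranks 86 and 431 (members passing: 1), a score of at least 100 gave 157 in HepG2, a 10 kb window 136 in HepG2, all annotated genes 19 in the kidney lines, HKC-8 of the severity and duration experiment 13 in the kidney lines, genes in at least 3 libraries 66 in the kidney lines, and leaving out RCC4 HIF-1β 127 in HepG2. HKC-8 alone and RCC4 alone gave 0 and 0, with 340 and 374 genes (HKC-8) and 66 and 441 genes (RCC4) at an unadjusted exact p below 0.05. The smallest p for a single line is 0.00926. Leaving out 1 library each gave 0 to 21 genes in the kidney lines and 0 to 165 in HepG2. Every one of the 18 libraries moved both counts by over 1.5 times, and 0 came from leaving out either HepG2 HIF-1β library, either one labelled HIF-2α or the one labelled HIF-1α replicate 2. PAX8 then had adjusted p of 0.138 to 0.368, LHX1 0.232 to 0.701 and PAX2 0.306 to 0.716. Per site, from 41 and 297, windows of 200 bp gave 25 in the kidney lines, a score of at least 100 gave 65 in the kidney lines, equal lengths 104 and 190, at least 3 libraries 149 and 563, and leaving out 1 library 0 to 60 and 0 to 305, where the loss of any of the 6 HepG2 libraries gave 0 and 0. For the isoforms, equal lengths (237 peaks) gave 6 genes higher for HIF-2α and 7 for HIF-1α, from 0 and 0. The causes of these shifts were not tested.

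With the replicate number as a block, 0 genes and 0 sites passed in either direction (260 and 748 genes and 572 and 1220 sites at an unadjusted exact p below 0.05), the smallest p being 0.00206, and PAX8 had an adjusted p of 0.272 per gene. For the isoforms the block gave 0 and 0. The numbers share no stated litter, day or culture. The differences between replicates 1 and 2 correlated at −0.267 to 0.093 for groups with the same antibody. For HIF-1α and HIF-2α of the same condition they correlated at −0.372 to 0.186, with a value above 0.1 in RCC4 alone. The values of −0.267 (HIF-1α of HepG2 and RCC4) and −0.372 (HepG2) involve HepG2 libraries whose isoform labels were not tested. The libraries were not treated as paired. Whether some came from the same chromatin is not stated. Genes below a caller's limit in shallow lists cannot be seen.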
